A study of Homo sapiens with 11 samples.

Results

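The proteasome genes of HEK293T cells were followed through 11 treatment conditions. They were taken as every gene of the count table whose name matches PSM, a class letter A to G, and a number. The rule found 48 of 38021 genes. Of these, 19 are PSMA and PSMB genes of the catalytic core, 20 are PSMC and PSMD genes of the cap, and 9 are PSME, PSMF and PSMG genes of activators, an inhibitor and assembly factors. HEK293T is an established line of wild-type genotype derived from human embryonic kidney cells. All cells were treated for 6 h on plates. Vehicle was 0.1% DMSO. Thapsigargin (Tg), an inhibitor of the pump that fills the endoplasmic reticulum (ER) with calcium, was used at 500 nM, AA147 at 10 µM, and AA132 at 0.1, 0.3, 1, 3, 6, 10, 15 and 30 µM. The series concerns compounds meant to act on chosen arms of the ER stress response, here AA147 and AA132. Each condition has 3 numbered libraries, which makes 33. Whether these are separate cultures is not stated in the labels, so p-values measure only the spread between the numbered libraries, which may be technical. In the tests between conditions this spread was estimated for each gene over all 33 libraries together, not over the conditions compared.

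The proteasome is the large protease that degrades ubiquitin-tagged proteins, including those pulled back from the ER. Its core is a barrel of stacked rings, the outer ones of PSMA subunits and the inner ones of PSMB subunits. PSMB5, PSMB6 and PSMB7 carry the active sites, and PSMB8, PSMB9 and PSMB10 replace them in the immunoproteasome that interferon induces. The cap, built from PSMC ATPases and PSMD subunits, binds, unfolds and feeds the substrate. PSME proteins open the core without the cap, PSMF1 binds the core as a regulator, and PSMG chaperones help assemble it. When proteasome activity is blocked, the ER-anchored transcription factor NRF1 (gene NFE2L1) is known to raise most subunit genes together through antioxidant response elements (ARE).

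Library totals ran from 32.3 to 37.96 M counts, and all but AA132 10 µM library 3 had at least 36.36 M. Of the 48 members, 46 passed the filter on low counts. PSMA8, a subunit of germ cells, had 0 counts in every library, and PSMB11, a subunit of the thymus, had 0 to 2 counts. The markers VIM, KRT8, KRT18, NEFM and LIN28B, known from HEK293 lines, were expressed in every library, and PAX2 was at 0.41 to 1.53 CPM. Of 9 markers of other cell types, 7 (PTPRC, CD3E, PECAM1, CDH5, ALB, KRT5 and COL3A1) were at 0 to 0.57 CPM, while EPCAM was at 111.6 to 157.2 CPM and COL1A1 at 19.7 to 49.9 CPM. COL1A1 was at 44.3 ± 5.04 CPM in vehicle and 19.98 ± 0.30 under Tg (SD, n = 3), and its part in the results was not tested. Levels are CPM, counts scaled to a common library size after a correction for composition, so a bulk value cannot tell fewer expressing cells from less RNA per cell. A member was called when the edgeR quasi-likelihood test gave a Benjamini-Hochberg adjusted p under 0.05 over all genes tested.

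A few libraries stood apart from the others of their condition and bear on what follows. In vehicle library 1 the median member lay 0.15 above the vehicle mean on the log2 scale, and 39 of the 46 members were higher there than in both other vehicle libraries. In vehicle libraries 2 and 3 the median member lay at -0.077 and -0.080. For 22 members vehicle library 1 was also above every library of the other 10 conditions. Its excess over libraries 2 and 3 had a median of 0.29 in the 23 members with transcripts under 1500 bases and 0.18 in the 23 longer ones. Across the 46 members, which all share these libraries, the excess fell with transcript length with a Spearman rho of -0.511, given as a description. The counts of 39 and 22 and this relation were not computed over all genes. Whether they are particular to the members is therefore not known. AA147 library 1 and AA132 10 µM library 1 deviated from their own conditions in a shared pattern, with a correlation of 0.876 over the members and 0.183 over all genes tested. AA132 0.1 µM library 2 deviated like vehicle library 1, with a correlation of 0.812 over the members and 0.105 over all genes. AA132 30 µM library 3 had the highest correlation with vehicle library 1 over all genes, 0.222, but -0.349 over the members. PSMA3, an outer-ring subunit, shows the first pattern: it stood at 164 CPM in AA147 library 1 against 109 and 115 in the others, and at 166 CPM in AA132 10 µM library 1 against 112 and 121. Over all genes tested, vehicle library 1 differed from libraries 2 and 3 by 59.49 and 46.2, as chi-square of the counts per degree of freedom. The median of the 33 pairs of libraries within conditions was 7.59. Tests against vehicle share their estimate of spread with quieter conditions, so they may understate the spread of vehicle. Whether RNA quality, library making or culture lay behind the libraries that stood apart was not tested. Several results for the members are also given without them. No values without them are given for other genes.

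**Figure D1:**
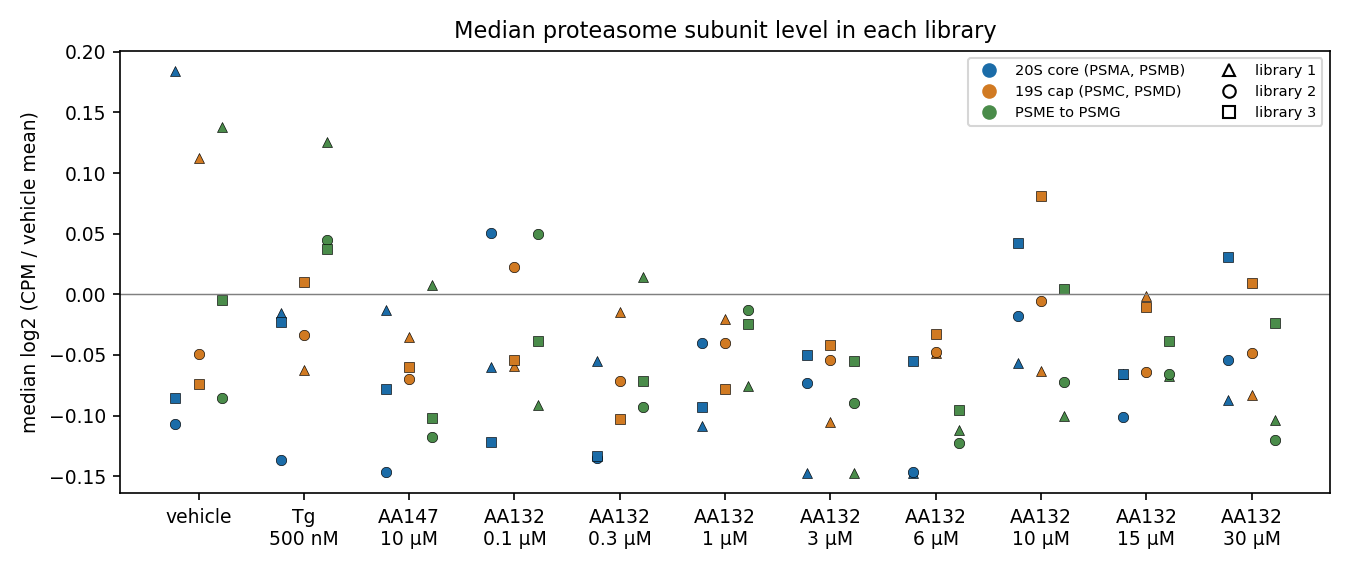
Median over the tested members of log2 CPM relative to the vehicle mean, for each of 33 libraries. Classes are the constitutive 20S core (PSMA and PSMB without PSMB8, PSMB9 and PSMB10), the 19S cap (PSMC and PSMD) and PSME to PSMG. Triangles, circles and squares are libraries 1, 2 and 3. Vehicle library 1 has the highest core median, 0.18, and the other vehicle libraries lie at -0.11 and -0.085.

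The 250 bases before the RefSeq start of each gene were searched in the GRCh38.p14 promoter table of RefSeq. The search covered AREs, CCAAT and GC boxes and elements of stress responses. An entry was found for 42 of the 48 members. Members with several starts were counted by the first entry. The 4 sequences below belong to the 3 members that fell most under Tg, PSMD1, PSMB5 and PSMA2, and to PSMD5, which had the steepest rise with AA132 dose among the 5 members called rising. They are written 5′ to 3′ on the strand of the gene. They stop before the GENCODE v44 start where it lies upstream of the RefSeq one. Capitals mark an ARE (TGANNNNGC) or a CCAAT box, on either strand.

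PSMD1, chr2:231056617-231056844, plus strand: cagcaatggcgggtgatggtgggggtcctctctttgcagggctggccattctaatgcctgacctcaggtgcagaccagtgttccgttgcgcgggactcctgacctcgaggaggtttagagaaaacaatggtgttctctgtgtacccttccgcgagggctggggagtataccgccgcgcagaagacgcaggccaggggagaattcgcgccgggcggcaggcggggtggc
PSMB5, chr14:23035231-23035470, minus strand: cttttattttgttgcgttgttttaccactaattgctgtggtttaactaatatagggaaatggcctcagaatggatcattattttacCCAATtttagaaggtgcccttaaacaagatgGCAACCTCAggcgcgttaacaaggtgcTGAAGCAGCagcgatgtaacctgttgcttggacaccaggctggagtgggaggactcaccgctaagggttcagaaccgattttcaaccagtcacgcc
PSMA2, chr7:42932186-42932424, minus strand: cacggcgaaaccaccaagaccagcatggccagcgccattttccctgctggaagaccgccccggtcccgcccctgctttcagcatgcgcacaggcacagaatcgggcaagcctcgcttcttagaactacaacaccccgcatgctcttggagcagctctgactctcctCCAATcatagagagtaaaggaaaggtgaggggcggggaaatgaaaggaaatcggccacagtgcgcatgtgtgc
PSMD5, chr9:120842952-120843172, minus strand: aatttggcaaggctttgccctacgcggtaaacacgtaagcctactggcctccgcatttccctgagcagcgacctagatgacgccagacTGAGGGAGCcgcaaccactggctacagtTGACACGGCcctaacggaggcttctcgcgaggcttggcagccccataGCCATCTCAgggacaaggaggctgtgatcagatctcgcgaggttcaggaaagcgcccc

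An ARE was present in 23 of the 42 member promoters (54.8%) and in 35.4% of 27305 promoters of the table. A CCAAT box was present in 18 (42.9%) against 9021 of the 27305 promoters, and a GC box (GGGCGG) in 26 (61.9%) against 42.3%. These motifs may overlap one another. The 3 elements tied to the unfolded protein response were in 0 of the 42: the UPRE (TGACGTGG), found in 0.7% of all promoters, the ERSE (CCAAT and CCACG 9 bases apart), in 0.1%, and the amino acid response element (TGATGNAA), in 3.2%. PSMD5 had 3 AREs, PSMB5 had 2 and a CCAAT box, PSMA2 had a CCAAT box and no ARE, and PSMD1 had neither an ARE nor a CCAAT box. These are matches of letters in a fixed window and say nothing of binding.

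In vehicle the constitutive core subunits had the highest class median of level per length, and the classes overlapped. Levels are given here per kilobase of the GENCODE v44 transcript. The 14 constitutive PSMA and PSMB subunits ranged from 43.4 CPM per kb for PSMB2 to 539.5 for PSMB3, with a median of 215.0. This order depends on the 1 transcript used for each gene, of 4426 bases for PSMB2 and 762 for PSMB3. In plain CPM PSMB2 was at 210.8, 186.2 and 178.5 in vehicle, above PSMA3 at 126.2, 111.3 and 116. The 14 PSMD genes ranged from 10.2 CPM per kb for PSMD5, a chaperone that helps assemble the cap base and leaves before the particle is complete, to 462 for PSMD8, a lid subunit. The PSME to PSMG genes had a median of 34.2 CPM per kb and were led by PSME3, the nuclear core activator, at 145 CPM per kb. Among the PSMC ATPases, PSMC4 stood highest at 251.5 CPM per kb and PSMC1 lowest at 2.25. PSMC1 has 13 named pseudogenes in GENCODE v44, and how reads shared with them were assigned is not given in the sources used here, so its level is uncertain.

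**Figure D2:**
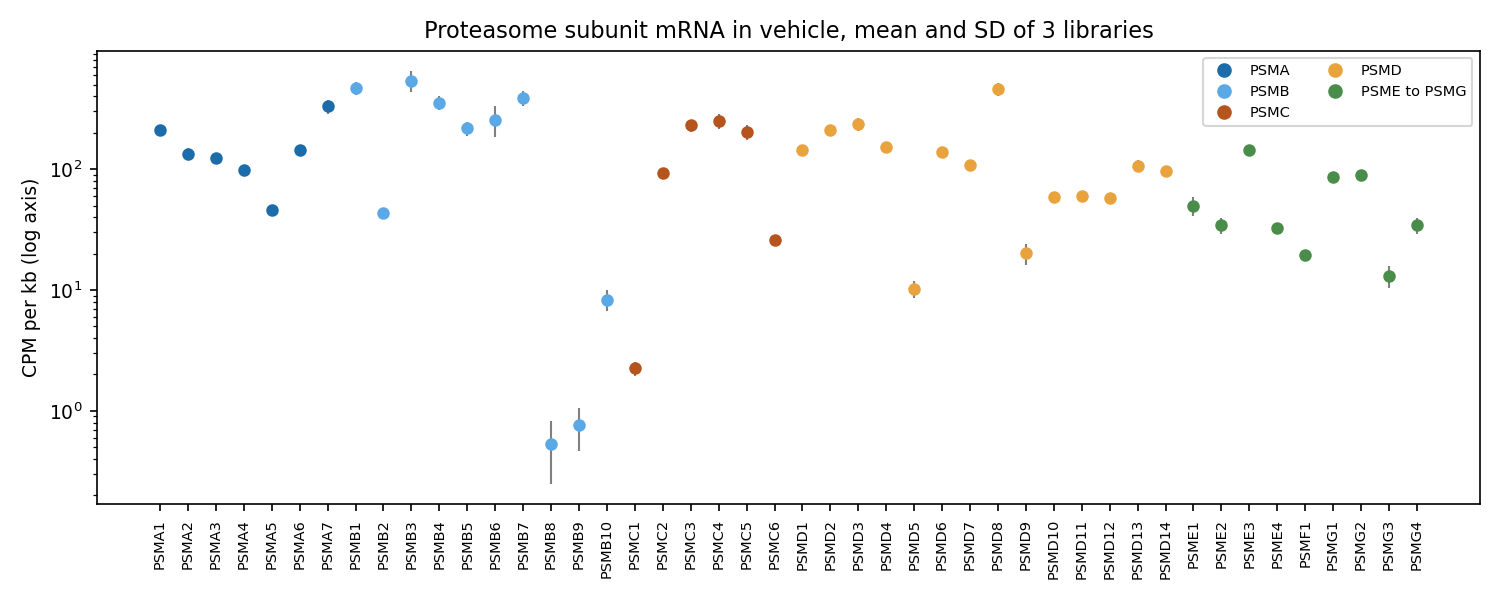
Vehicle level of the 46 members with counts in vehicle, in CPM per kilobase of transcript on a log axis, as the mean and SD of 3 libraries, coloured by class. PSMB8 at 0.54 and PSMB9 at 0.76 CPM per kb lie far under the constitutive core subunits, and PSMC1 lies at 2.25.

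The immunoproteasome subunits were low in every condition. In vehicle, PSMB5 was at 262.5, 211 and 207.5 CPM, PSMB6 at 281, 177 and 177 CPM, and PSMB7 at 435, 329 and 385 CPM. Their immunoproteasome counterparts PSMB8, PSMB9 and PSMB10 had means of 0.60 ± 0.32, 0.78 ± 0.30 and 8.15 ± 1.63 CPM (SD, n = 3). PSMB8 had only 7 to 34 counts in a library and PSMB9 only 7 to 52, so their changes could not be resolved: under Tg the 95% interval of the log2 change ran up to 1.24 for PSMB9. PSMB9 varied most of all members over the 33 libraries, with a coefficient of variation of 44.3%, and PSME3 least, with 5.09%.

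Tg, which causes ER stress of all arms, was set against vehicle first. Some core and cap subunits were called lower, by moderate amounts, and fewer members were called higher. Of the 46 members, 15 were called (32.6%), 4 higher and 11 lower, where 31.2% of the 17793 genes tested were called, 16.2% higher and 15% lower. The total shares were close. Calls lower outnumbered calls higher among the members and not among all genes, a split of few calls that was not tested. Vehicle library 1, higher than both other vehicle libraries for 39 of the 46 members, enters this comparison. The median size of the log2 change was 0.13 for members and 0.24 for all genes. The median log2 change of the members was -0.015, and 15 members had no overlap between the groups, where 38.2% of all genes had none. By class, 2 of 7 PSMA and 2 of 10 PSMB subunits fell, as did 1 of 6 PSMC and 6 of 14 PSMD subunits, while 1 PSMA, 1 PSMD and 2 PSME to PSMG genes rose. With vehicle library 1 left out, 13 were called, 4 higher and 9 lower, and the median moved to 0.036. With library totals as the only scaling 14 were called, 2 higher and 12 lower. Fitted on the Tg and vehicle libraries alone 6 were called. The share of all genes called in these alternative fits was not computed. PSMD1, PSMB5, PSMA2, PSMA4 and PSMD6 were called in all 13 alternative fits.

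PSMD1, the largest scaffold subunit of the cap base (chromosome 2, 231056845 to 231173116, GENCODE v44), had the lowest adjusted p. It was at 489.9, 482 and 460 CPM in vehicle and at 320, 325 and 338 CPM under Tg. All Tg libraries lay far below all vehicle libraries, a fall of 31.4% (log2 change -0.54, SE 0.062, edgeR adjusted p = 1.86e-08). PSMB5, the catalytic subunit that most proteasome inhibitors block (chromosome 14, 23016543 to 23035230), fell from 262.5, 211 and 207.5 CPM to 165, 165 and 178 CPM. The groups did not overlap, the log2 change was -0.42 (SE 0.073, adjusted p = 2.45e-05), and without vehicle library 1 it was -0.31 (adjusted p = 0.000412). The other active-site subunits did not pass the test: PSMB6 stood at 203.5, 179 and 199.6 CPM and PSMB7 at 389, 352 and 415 CPM under Tg, both inside the vehicle range.

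Of the other core subunits, PSMA2 and PSMA4 of the outer ring and PSMB3 of the inner ring were lower. PSMA2 went from 216, 180 and 177 CPM to 145, 148 and 137 CPM (log2 change -0.41, SE 0.09, adjusted p = 0.000511). PSMA4 went from 473, 419 and 398 CPM to 345, 341 and 339 CPM (log2 change -0.33, adjusted p = 0.00256). Neither pair of groups overlapped, and both were still called without vehicle library 1, at log2 changes of -0.32 and -0.27. PSMB3 depended on that library: its vehicle values were 502.5, 360 and 371 CPM against 314, 319 and 341 under Tg (log2 change -0.34, adjusted p = 0.00216), and without library 1 the change was -0.18 with an adjusted p of 0.0583. PSMA5 rose in all Tg libraries, at 193, 195 and 205.5 CPM against 191, 161 and 173 in vehicle, by only 0.18 on the log2 scale (adjusted p = 0.0466). The PSMA5 call was lost without any 1 of the Tg libraries or without vehicle library 2 or 3, with adjusted p from 0.0784 to 0.311, whereas without vehicle library 1 the change was 0.24 (adjusted p = 0.00953).

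The lid subunits PSMD3, PSMD6, PSMD11 and PSMD12 fell beside PSMD1. PSMD12 went from 251, 267 and 230 CPM to 203, 211 and 213 CPM (log2 change -0.25, SE 0.052, adjusted p = 0.00025). PSMD6 went from 199, 196 and 174 CPM to 155, 155 and 163 CPM (log2 change -0.27, adjusted p = 0.00096). The groups did not overlap for either. PSMD11 was at 231, 228 and 236 CPM in vehicle and at 205, 201 and 202 CPM under Tg (log2 change -0.19, adjusted p = 0.00621). PSMD3 was at 579, 469 and 477 CPM and then at 449, 434 and 441 CPM (log2 change -0.20, adjusted p = 0.0117), and lost its call without vehicle library 1, with an adjusted p of 0.167. PSMD2, the other large scaffold of the base, fell from 688, 574 and 586 CPM to 513, 513 and 539 CPM (log2 change -0.24, adjusted p = 0.00211), and by 0.16 without vehicle library 1 (adjusted p = 0.0327). Among the ATPases only PSMC6 was called, at 57.0, 56.9 and 53.8 CPM in vehicle and 42.9, 42.4 and 47.7 under Tg (log2 change -0.33, adjusted p = 0.0227), and not without Tg library 1 (0.066) or 2 (0.0832). The lid subunit with the deubiquitinase site, PSMD14, was not called, at 165, 170 and 161.5 CPM under Tg against 160, 151 and 143 in vehicle.

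Besides PSMA5, the members called higher under Tg were PSMG1, PSMF1 and PSMD5. PSMG1, a chaperone that pairs with PSMG2 to start the outer ring, rose from 159, 141 and 149.8 CPM to 170, 174 and 179.8 CPM (log2 change 0.22, SE 0.062, adjusted p = 0.00656). The PSMG1 call was lost without Tg library 3 (0.0593) or vehicle library 2 (0.0745). PSMF1, the core regulator, rose from 174, 155 and 146 CPM to 185, 179.7 and 194 CPM (log2 change 0.23, adjusted p = 0.0195), and its call was lost without Tg library 1 or 3 or vehicle library 2 or 3, with adjusted p from 0.0543 to 0.119. Without vehicle library 1 the changes were 0.26 for PSMG1 (adjusted p = 0.00304) and 0.30 for PSMF1 (0.00377). PSMD5, the base chaperone, was at 39.8, 40.3 and 41.0 CPM under Tg, and vehicle spread from 29.4 to 40.2 CPM, so the groups overlapped. Its log2 change of 0.22 (adjusted p = 0.0424) shrank to 0.11 without vehicle library 1 (adjusted p = 0.324), and the call was also lost without vehicle library 3 or any 1 Tg library. The partner of PSMG1, PSMG2, was not called, at 98.0, 88.9 and 86.9 CPM against 93.9, 93.0 and 100.5. PSME1, which forms the interferon-inducible activator with PSME2, had the lowest log2 change of its class, -0.21, and was not called.

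**Figure D3:**
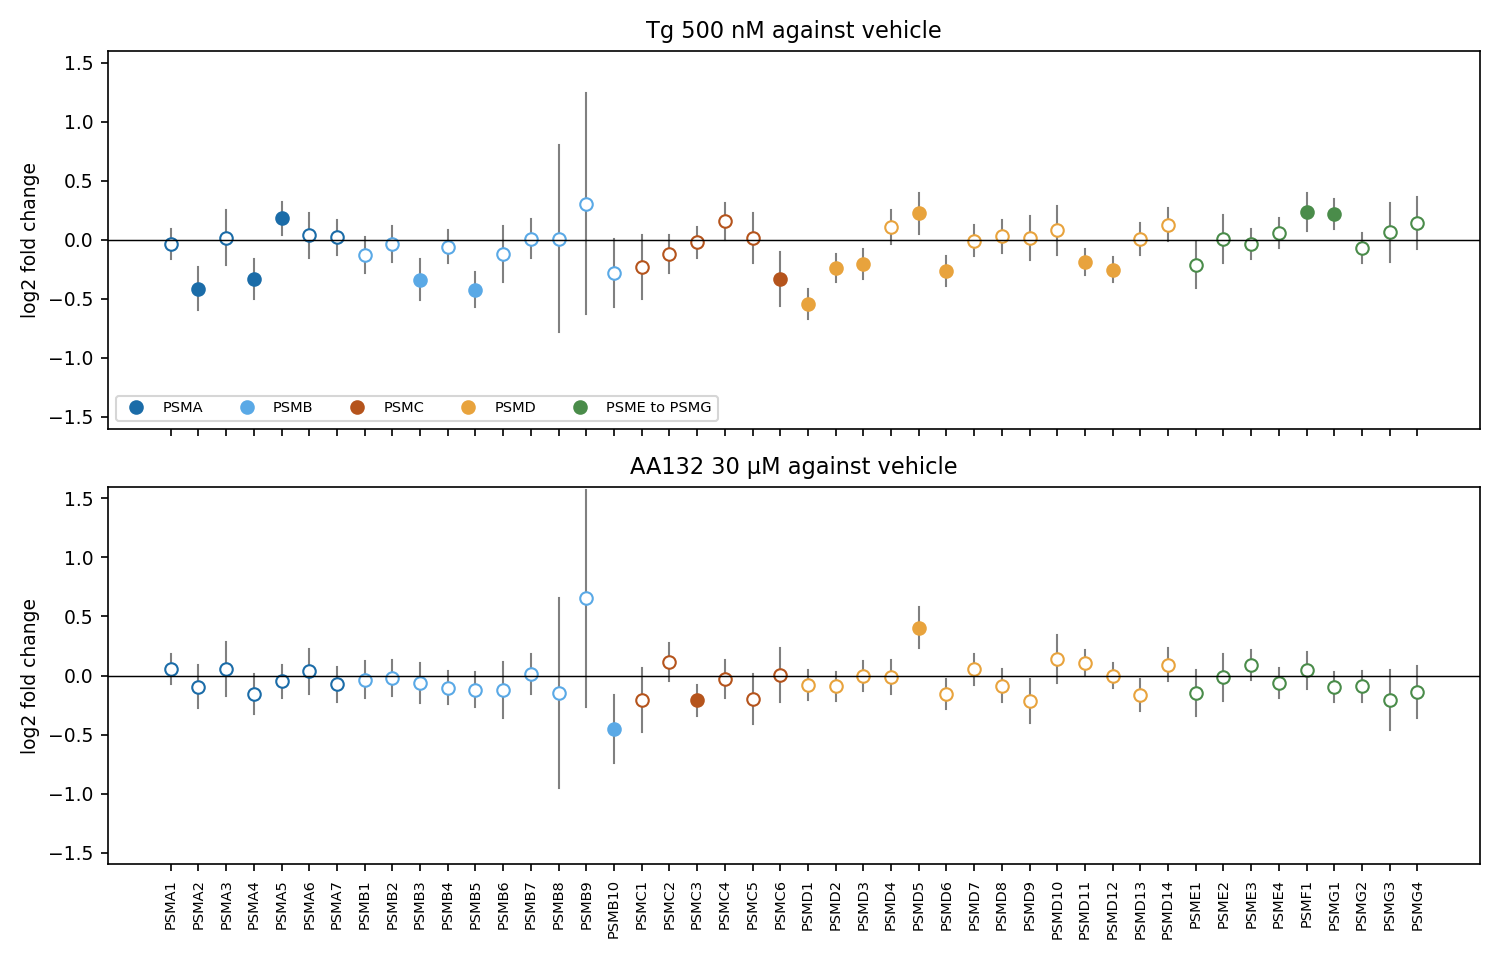
Log2 fold change with its 95% interval for the 46 tested members under Tg 500 nM (top) and AA132 30 µM (bottom), both against the same vehicle libraries. Filled points are called at an adjusted p under 0.05. Under Tg 11 lie below 0 and 4 above, and under AA132 30 µM 2 lie below and 1 above.

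Genes that work with the proteasome were taken from lists chosen with earlier results of these data known. Of 13 partners and assembly factors outside the PSM names, 5 rose and 1 fell under Tg, where 16.2% of all genes were called higher and 15% lower. ZFAND2A, an arsenite-inducible protein that binds the proteasome, rose from 11.7, 10.9 and 10.8 CPM to 25.7, 24.3 and 30.5 CPM (log2 change 1.27, adjusted p = 1.46e-11). UCHL5, a deubiquitinase of the cap, rose from 88.5, 101.7 and 92.2 CPM to 131.6, 125.7 and 125.3 CPM (log2 change 0.44, adjusted p = 1.96e-07). Both groups of libraries were apart for each gene. Of 8 genes that control subunit transcription, 3 rose and 2 fell. NFE2L1 itself went from 247, 249 and 263 CPM to 317, 313 and 321 CPM (log2 change 0.33, adjusted p = 2.12e-05). NFE2L2 rose by 0.48 and VCP, the ATPase that pulls NRF1 out of the ER membrane, by 0.33, while NFE2L3 fell by 0.54 and the VCP cofactor NPLOC4 by 0.32. Of 11 ubiquitin, ubiquitin-activating and shuttle genes, RAD23B rose by 0.24, and UBA1 and RPS27A fell by 0.28 and 0.22. The RPS27A groups overlapped, at 126.7, 127.5 and 102.8 CPM in vehicle and 101.9, 97.8 and 107.2 under Tg. Among the vehicle libraries, library 1 had the lowest RAD23B, NFE2L2, UCHL5, NFE2L1 and NFE2L3 values. It had the highest UBA1, NPLOC4, VCP and ZFAND2A values. How far these changes rest on that library was not tested.

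AA147 at 10 µM, compared with vehicle, gave no call among the members by edgeR or by DESeq2, where edgeR called 0.0225% of all genes. At an unadjusted p under 0.05 there were 6 members, 2 higher and 4 lower, against 6.81% of all genes. The lowest p was that of PSMC5, a cap ATPase, at 181, 249.8 and 238 CPM against 312, 261 and 238 in vehicle (log2 change -0.28, adjusted p = 0.594). Its low value was in AA147 library 1, and the groups overlapped. Of the 46 members 35 (76.1%) lay lower than in vehicle, against 48.7% of all genes. But 23 did without vehicle library 1 and 40 without AA147 library 1, where the median log2 change was 0 and -0.11. For 42 members the 95% interval of the log2 change lay inside ±0.5, and the exceptions were PSMB8, PSMB9, PSMB10 and PSMC1.

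AA132 was compared with vehicle at 8 concentrations. No member was called by edgeR at 0.1, 0.3, 1 or 3 µM, where 0%, 0%, 0% and 0.118% of all genes were called. At an unadjusted p under 0.05 there were 0, 4, 3 and 7 members, against 4.47%, 5.51%, 5.94% and 9.19% of all genes, and DESeq2 called 0, 0, 0 and 1. At 6 µM 2 members were called, PSMD5 higher and PSMG2 lower, against 1.07% of all genes. At 10 µM 0 were called, against 1.41%, with 4 at an unadjusted p under 0.05 (12.9% of all genes) and 0 by DESeq2. At 15 µM PSMD5 alone was called, against 2.76%. At 30 µM PSMD5 was called higher and PSMC3 and PSMB10 lower, 3 of 46 (6.52%) against 7.05% of all genes, 3.86% higher and 3.19% lower. The share called at 30 µM was close to that of all genes, and the median size of the log2 change was 0.092 for members and 0.15 for all genes. At every dose between 28 and 40 members (60.9% to 87%) lay lower than in vehicle, against 47.5% to 50.8% of all genes. Without vehicle library 1 the number lower was 16, 27, 21, 24, 25, 13, 19 and 18 from the lowest to the highest dose.

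PSMD5 was the member with the clearest response to AA132. Vehicle held 29.4, 40.2 and 34.0 CPM. At 0.1 µM the libraries held 37.9, 35.9 and 38.6 CPM, at 0.3 µM 33.9, 34.5 and 36.5, and at 1 µM 37.3, 36.7 and 36.2. The values at these doses lay inside the vehicle range. At 3 µM they were 38.05, 40.0 and 33.3 CPM, and at 6 µM 44.2, 47.0 and 43.0. At 10 µM they were 35.4, 40.9 and 41.3 CPM, at 15 µM 43.6, 45.7 and 46.5, and at 30 µM 47.7, 45.5 and 43.98. All libraries at 6, 15 and 30 µM were above all vehicle libraries, whereas those at 10 µM overlapped with vehicle. The log2 change was 0.37 at 6 µM (SE 0.085, adjusted p = 0.018), 0.18 at 10 µM (0.363), 0.39 at 15 µM (0.00641) and, highest, 0.41 at 30 µM (0.00249).

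The PSMD5 calls at 15 and 30 µM were kept whichever library was left out, and without vehicle library 1 the log2 changes were 0.29 (adjusted p = 0.0409) and 0.30 (0.0128). Fitted on the 2 conditions alone, the adjusted p was 0.4 at 15 µM and 0.234 at 30 µM. The call at 6 µM was lost without 6 µM library 1 or 2 or vehicle library 1 or 3, with adjusted p from 0.064 to 0.119. PSMD5 lies on the minus strand of chromosome 9, 120815496 to 120842951. It overlaps a gene on the other strand, named CUTALP in GENCODE v44 and taken here to be the PSMD5-AS1 of the count table. Whether the counting used strand is not given in the sources used here. PSMD5-AS1 was at 4.54, 3.31 and 2.86 CPM in vehicle and at 4.98, 5.37 and 5.86 CPM at 30 µM (log2 change 0.60, adjusted p = 0.0365), a level well under that of PSMD5. Under Tg PSMD5-AS1 was at 7.03, 7.72 and 7.98 CPM. The part of shared reads in the changes of PSMD5 with AA132 and with Tg was not tested.

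The calls of lower members at 6 and 30 µM were close to the threshold, and each was lost when certain single libraries were left out. PSMB10 was at 6.02, 5.80 and 6.02 CPM at 30 µM against 9.95, 7.74 and 6.76 in vehicle (log2 change -0.45, SE 0.14, adjusted p = 0.0471). The groups did not overlap, but without vehicle library 1 the change was -0.28 with an adjusted p of 0.23, and the call was also lost without vehicle library 2 (0.0501) or any 1 library at 30 µM, where the change stayed between -0.44 and -0.49. PSMC3, an ATPase of the base, was at 295, 302 and 321 CPM at 30 µM against 402, 336.5 and 322 in vehicle (log2 change -0.21, adjusted p = 0.0437). Without vehicle library 1 its change was -0.105 (adjusted p = 0.287), and the call was lost without 30 µM library 1 (0.173) or 2 (0.13) too. PSMG2, partner of PSMG1 in core assembly, was at 82.6, 77.6 and 77.4 CPM at 6 µM against 93.9, 93.0 and 100.5 in vehicle (log2 change -0.27, adjusted p = 0.0226). The PSMG2 call was lost without 6 µM library 2 or 3 or vehicle library 3, with adjusted p from 0.103 to 0.137 and changes of -0.26 to -0.24. At 30 µM PSMG2 was at 85.4, 88.1 and 96.5 CPM and not called. PSMD5 and PSMG2 at 6 µM lie outside the rule for named genes and were chosen after their values were seen.

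At 10 µM of AA132 the 3 members with the lowest p were PSMD10, PSMG2 and PSMD5, none of them called. PSMD10, another chaperone of base assembly, was at 126.9, 94.1 and 94.5 CPM against 87.8, 80.8 and 90.2 in vehicle (log2 change 0.29, adjusted p = 0.178). Its highest value was in library 1, one of the libraries that stood apart. PSMG2 was at 87.4, 83.8 and 86.2 CPM (log2 change -0.16, adjusted p = 0.263). Over all members the median log2 change was -0.029, and it was -0.0095 without AA132 10 µM library 1 and 0.081 without vehicle library 1.

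**Figure D4:**
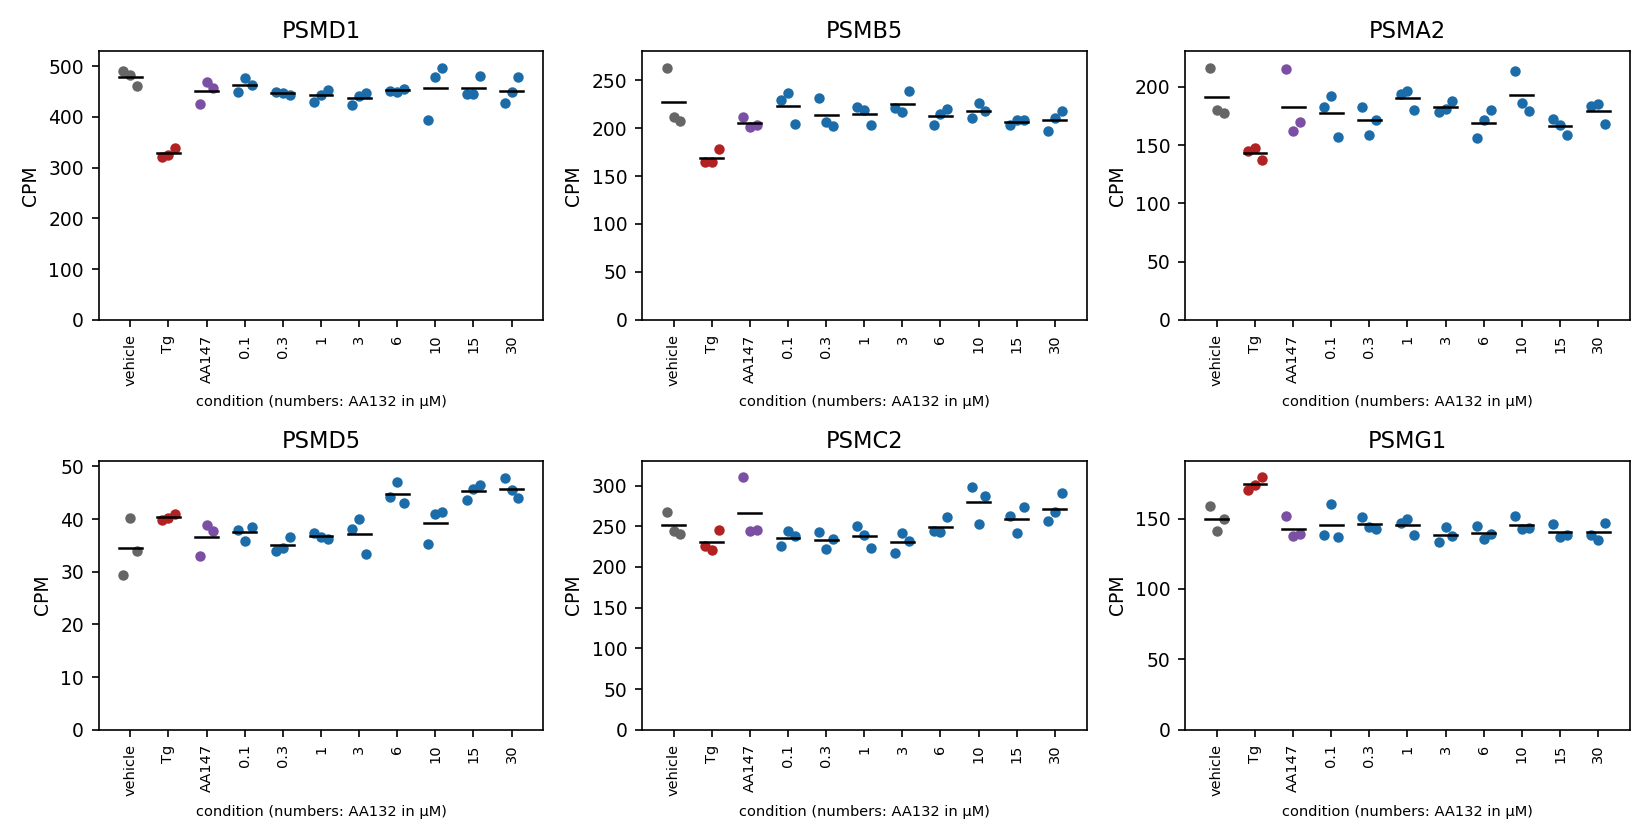
CPM of 6 members in each of the 33 libraries, with a bar at the mean of each condition, vehicle in grey, Tg in red, AA147 in purple and AA132 in blue. The Tg points of PSMD1, PSMB5 and PSMA2 lie under all vehicle points, and the AA132 points of PSMD5 at 6, 15 and 30 µM lie above all vehicle points.

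A slope of log2 level on log10 dose was then fitted over the 24 AA132 libraries alone, which keeps vehicle out of the test. Of 46 members 7 were called (15.2%), 5 rising and 2 falling, where 18.7% of 17554 genes were called, 9.83% rising and 8.89% falling. All slopes were small. PSMD5 rose by 0.14 per log10 unit of dose (SE 0.027, adjusted p = 0.000288). PSMC2, an ATPase of the base, rose by 0.095 (SE 0.023, adjusted p = 0.00327): it was at 225, 244 and 238.5 CPM at 0.1 µM and at 256, 267 and 291 CPM at 30 µM. The highest PSMC2 value among the 24 was 298 CPM, in 10 µM library 1. PSMD7, a lid subunit paired with the deubiquitinase, rose by 0.074 (adjusted p = 0.0102), from 165, 175 and 170 CPM at 0.1 µM to 172, 183 and 198 CPM at 30 µM, groups that overlapped. These 3 calls were kept in all 32 alternative fits. At 30 µM PSMC2 and PSMD7 overlapped with vehicle, where PSMC2 was at 268, 245 and 241 CPM and PSMD7 at 190.5, 170 and 173 CPM.

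PSMD14, the deubiquitinase itself, rose by 0.075 per log10 unit of dose (adjusted p = 0.00539), from 140, 154 and 139 CPM at 0.1 µM to 153, 165 and 165 CPM at 30 µM. The lower and upper dose overlapped, and without the 30 µM dose the adjusted p was 0.0534. PSMA1, an outer-ring subunit, rose by 0.056 (adjusted p = 0.0383), from 220.9, 256.7 and 226.8 CPM at 0.1 µM to 252, 259.4 and 278.6 CPM at 30 µM, and this call was lost in 10 of 32 alternatives, 8 of which left out 1 library, with adjusted p up to 0.114 among these and 0.194 without the 30 µM dose. PSME4, the large activator of the core, fell by 0.059 per log10 unit of dose (adjusted p = 0.00637), from 238, 245 and 252 CPM at 0.1 µM to 229, 229 and 218.5 CPM at 30 µM, with no overlap. PSMG4, an assembly chaperone of the core that acts with PSMG3, fell by 0.095 (adjusted p = 0.02), from 25.0, 32.3 and 28.2 CPM at 0.1 µM to 24.5, 24.2 and 24.5 CPM at 30 µM. The PSMG4 slope rested on 0.1 µM library 2, which held the highest value of the 24 and is one of those that stood apart, and without it was -0.065 with an adjusted p of 0.126. On a linear scale of dose neither PSME4 (0.0857) nor PSMG4 (0.32) was called. At 30 µM PSMD14 and PSMA1 overlapped with vehicle, where PSMD14 was at 160, 151 and 143 CPM and PSMA1 at 273.9, 249.3 and 238.7 CPM. PSME4 and PSMG4 at 30 µM lay inside the vehicle range. In vehicle PSME4 was at 211.5, 260.3 and 233.5 CPM and PSMG4 at 30.4, 22.3 and 27.8 CPM.

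**Figure D5:**
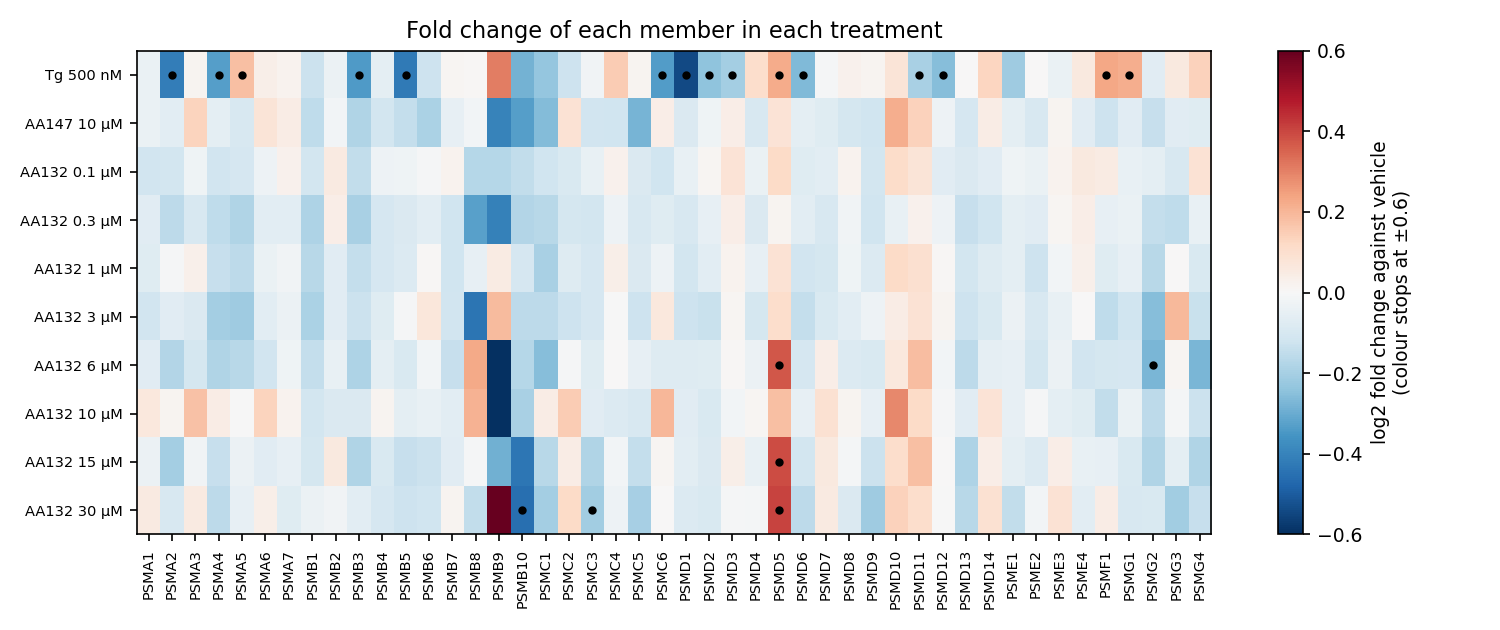
Log2 fold change against vehicle of the 46 tested members in the 10 treatments, red for higher and blue for lower, with the colour ending at ±0.6 and a black dot on each call. Tg has 15 dots, AA132 has 2 at 6 µM, 1 at 15 µM and 3 at 30 µM, and AA147 and the other doses have none. All rows share the vehicle libraries.

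Genes of the partner lists were called at few single doses of AA132 and more often over the dose slope. At 30 µM 1 of 13 partners rose, ZFAND5, a zinc finger activator of the proteasome, by 0.29 on the log2 scale (adjusted p = 0.0406), and 1 of 8 control genes fell, NFE2L3, by 0.23 (adjusted p = 0.0277). NFE2L1 was at 270, 264.5 and 264.5 CPM at 30 µM, just above the vehicle range of 247 to 263, and was not called. Over the dose slope 3 partners rose (USP14, ZFAND5 and ZFAND2A) and 0 fell, 1 control gene rose (VCP) and 1 fell (NFE2L3), and of the 11 delivery genes 2 rose, among them UBB, and 3 fell, among them RAD23B and UBQLN2. Over all genes 18.7% were called in that slope. In the delivery list 1 gene was called higher at 10 µM and 1 at 15 µM. AA147 moved 0 genes of the 3 lists past the threshold.

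AA132 and AA147 were compared at their 1 matched concentration, 10 µM, where no member was called by edgeR or DESeq2, against 0.0674% of all genes. At an unadjusted p under 0.05 there were 2, both higher with AA132, against 8.01% of all genes. PSMD7 was at 169, 192 and 208 CPM with AA132 and 171, 166 and 170 CPM with AA147, groups that overlapped, a log2 difference of 0.16 with a 95% interval of 0.036 to 0.29 (adjusted p = 0.444). PSMC1 was at 7.61, 9.72 and 13.3 CPM against 7.97, 8.20 and 8.54 (log2 difference 0.31, interval 0.035 to 0.58, adjusted p = 0.528). PSMB4, an inner-ring subunit, came next, with a log2 difference of 0.12 and an interval of -0.015 to 0.26 (adjusted p = 0.681). For 43 of the 46 members the interval lay inside ±0.5, with PSMB8, PSMB9 and PSMC1 outside. The median log2 difference was 0.051, and it was 0.030 without AA132 10 µM library 1 and 0.081 without AA147 library 1.

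AA132 at 30 µM was last compared with Tg, a test that uses no vehicle library and sets 2 agents at different concentrations side by side. Of 46 members 13 were called (28.3%), 9 higher with AA132 and 4 lower, where 29.8% of all genes were called, 14.3% higher and 15.5% lower. With library totals as the only scaling the split was 13 higher and 2 lower. PSMD1 was at 427, 449 and 478 CPM with AA132 and at 320, 325 and 338 CPM with Tg, with no overlap (log2 difference 0.46, SE 0.062, adjusted p = 4.96e-07). PSMD11 was at 234, 258 and 256 CPM against 205, 201 and 202 (log2 difference 0.30, adjusted p = 5.82e-05). PSMG1 was lower with AA132, at 138.6, 134.8 and 147.2 CPM against 170, 174 and 179.8 (log2 difference -0.32, adjusted p = 0.000165). All libraries of one agent lay apart from those of the other for both genes. PSMD12 was at 245.5, 250.6 and 251.7 CPM with AA132, above the 203 to 213 of Tg (log2 difference 0.25, adjusted p = 0.000274). PSMB5 was at 197.2, 210.7 and 218 CPM, above the 165 to 178 of Tg (0.30, adjusted p = 0.00166). PSMA2 was at 183.8, 185.1 and 168.2 CPM, above the 137 to 148 of Tg (0.32, adjusted p = 0.00652). The libraries of these 6 members did not overlap between the agents. Over all members 26 had no overlap, against 46.8% of all genes. The other 7 called members, PSMA5, PSMB3, PSMC2, PSMC3, PSMC6, PSMD3 and PSMG4, each lost their call without at least 1 library, and 8 calls were left without Tg library 2.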

How the data were processed

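Total RNA of HEK293T cells was sequenced, and the authors deposited a table of expected counts per gene, which need not be whole. The floor value of 0.009 was taken as 0. The submitters' processing notes name GRCh38.p7; the aligner and counter are not given in the sources used here. Expected counts were rounded. All 11 conditions were fitted together in edgeR 4.0.16 (R 4.3.3, limma 3.58.1; TMM scaling, its filter on low counts, quasi-likelihood F-test) over 17793 genes, with Benjamini-Hochberg adjustment, and the dose slope over 17554. CPM used TMM library sizes. The members, lists and rule for named genes (called members with the lowest adjusted p, the catalytic subunits, and the lowest p where few were called) were chosen with earlier results of these data known. Alternatives were DESeq2 1.42.0, other scaling, no filter, unrounded counts, fits of 2 conditions, a replicate block and leaving out each library. Over all genes, 2 of 165 pairs of libraries with the same number had deviations correlated over 0.1, so the numbers were not taken as pairs. Results for a few genes of the lists are not reported here.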

Additional observations from a re-analysis of the deposited data

How the results depend on the processing

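With DESeq2 the number of members called was 1 at AA132 3 µM, 3 at 6 µM, 2 at 15 µM and 15 for 30 µM against Tg. By edgeR these were 0, 2, 1 and 13. With library totals only the number was 14 under Tg, 3 at 6 µM, 2 at 15 µM, 2 at 30 µM and 15 for 30 µM against Tg. With no filter on low counts it was 14 under Tg, 1 at 10 µM, 2 at 30 µM and 6 for the slope. With RLE scaling it was 14 under Tg and 12 for 30 µM against Tg. Fits of the 2 conditions compared called 6 members under Tg, 0 at 6, 15 and 30 µM of AA132, and 22 for 30 µM against Tg. Leaving out 1 library gave 11 to 15 calls under Tg, 0 to 2 at 6 µM, 1 to 3 at 15 µM, 1 to 6 at 30 µM, 8 to 11 for 30 µM against Tg and 6 to 8 for the slope. It gave 0 for AA147, for AA132 at 0.1, 0.3, 1, 3 and 10 µM, and for AA132 against AA147. No called member changed direction under these alternatives. The share of all genes called was not computed for any alternative fit, so these counts cannot be set against it. With the replicate number as a block, the count at 30 µM was 2 in place of 3, since PSMB10 had an adjusted p of 0.0562, and the other counts did not move. Same-numbered libraries had correlations of -0.147 to 0.183, and 2 of 165 pairs were over 0.1. Counts as low as those of PSMB8 and PSMB9 limit what can be seen of the immunoproteasome.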

Other observations

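Other transcripts with PSM names fall outside the rule. PSMD5-AS1, which overlaps PSMD5 on the other strand, was at 4.54, 3.31 and 2.86 CPM in vehicle and at 7.03, 7.72 and 7.98 CPM under Tg, with no overlap (log2 change 1.09, edgeR adjusted p = 1.04e-05). Over AA132 dose it rose by 0.19 per log10 unit (adjusted p = 0.0088). PSMG3-AS1 rose by 0.41 under Tg (adjusted p = 0.00236), and PSMB8-AS1 was higher at AA132 30 µM than under Tg by 0.55 (adjusted p = 0.00166). PSMC3IP, a recombination factor, rose by 0.08 per log10 unit of dose (adjusted p = 0.0087). These were chosen after their values were seen.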
